A study of Mus musculus with 12 samples.

Results

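The ISG15 conjugation machinery was described here as 5 genes, taken by symbol from the 24062 genes listed in the deposited count files: Isg15, Uba7, Ube2l6, Herc6 and Usp18. All 5 were found and all 5 passed the filter on low counts in both tissues. RNA came from liver and gastrocnemius, a calf muscle, of 6 female C57BL/6N mice on chow. The R135W animals (numbers 5, 7 and 12) were homozygous for R135W in Mars2, the nuclear gene for the enzyme that charges the mitochondrial methionine tRNA, and were 9.0, 7.4 and 8.6 weeks old. The wild-type animals (WT, numbers 6, 8 and 9) were 9.0, 9.0 and 7.4 weeks old. This gives 4 groups of 3 libraries, with a liver and a gastrocnemius library from every animal. How the allele was made, and the litters, are not given in the sources used here. The series asks whether loss of Mars2 function goes with a type I interferon response.

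ISG15 is a small protein with 2 ubiquitin-like domains that is attached to lysines of other proteins, much as ubiquitin is. UBA7 activates it, UBE2L6 carries it, HERC6 is its main ligase in mouse, and USP18 removes it. All of these genes are classical targets of type I interferon, whose receptor acts through the JAK-STAT pathway and IRF9 on a promoter element called ISRE. USP18 also binds the interferon receptor and damps its signal, and free ISG15 can be secreted and act on the leukocyte integrin LFA-1.

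In the mm10 annotation of the files, Isg15 has 2 exons on the minus strand of chr4:156199424-156200818. Uba7 has 24 exons on the plus strand of chr9:107975567-107984056. Ube2l6 has 4 exons on the plus strand of chr2:84798828-84810003. Herc6 has 23 exons at chr6:57580992-57665136, and Usp18 has 11 exons at chr6:121245906-121270917, both on the plus strand. None of the 5 shares exon bases with another gene of the annotation, and none lies on chromosome 1, where Mars2 is. Promoter sequence of RefSeq (GRCm38.p6, 250 bases before the gene's first base) was at hand for 4 of the 5, and in these 4 the first base was that of the files. Both strands were searched for the core of the ISRE, written as GAAA, any 2 bases and GAAA. Isg15 held 3 matches, which overlap one another and span bases -78 to -57 counted back from the gene's first base. This motif is in 2.98% of 32851 promoter windows of the same length. A shorter form without the first G, AAANNGAAA, was chosen after the sequences were seen and is in 9.37% of windows. Every match of the longer form contains one of the shorter. Uba7 held 1 match of the shorter form, on the minus strand at bases -27 to -19. Neither form was in the windows of Ube2l6 and Herc6, which says only that these letters are not there. The STAT dimer motif TTCNNNGAA, in 7.02% of windows, was in none of the 4. The windows of Isg15 and Uba7 are shown because they hold the matches, whose AAANNGAAA letters are in capitals.
Isg15 (chr4:156200819-156201068, minus strand): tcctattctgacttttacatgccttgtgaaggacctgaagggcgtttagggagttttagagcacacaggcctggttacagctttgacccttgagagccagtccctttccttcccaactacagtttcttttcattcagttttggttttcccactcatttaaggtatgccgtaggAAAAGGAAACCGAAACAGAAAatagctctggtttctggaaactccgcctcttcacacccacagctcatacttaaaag
Uba7 (chr9:107975317-107975566, plus strand): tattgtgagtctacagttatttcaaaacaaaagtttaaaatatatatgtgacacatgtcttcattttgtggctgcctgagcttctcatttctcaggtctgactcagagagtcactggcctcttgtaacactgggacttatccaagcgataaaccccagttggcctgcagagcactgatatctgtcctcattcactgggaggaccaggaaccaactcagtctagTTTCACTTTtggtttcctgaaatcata

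Total counts per library ran from 20751583 to 30460237. CPM below stands for counts per library size, with TMM factors computed over all 12 libraries, and values are listed in the order of animals 5, 7 and 12 for R135W and 6, 8 and 9 for WT. R135W is a missense change, which gene counts do not show. Mars2 itself was at 2.404 to 3.631 CPM in R135W livers and 2.236 to 3.402 CPM in WT livers. In gastrocnemius it was at 8.88 to 10.6 CPM in R135W and 10.9 to 12.8 CPM in WT (log2 fold change -0.31, SE 0.108, adjusted p = 0.295 by edgeR). Summed markers of hepatocytes were 75560 to 94500 CPM in the livers, and those of muscle fibres 134000 to 178200 CPM in gastrocnemius. In the other tissue these sums were 0.460 to 42.0 CPM and 0.707 to 1.67 CPM. The highest hepatocyte sum in muscle, 42.0 CPM in R135W animal 12, was 0.0537% of that in R135W livers. That share of the R135W liver level would be at most 1.19% of the level measured for any of the 5 genes in that library.

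In R135W liver, 4 of the 5 genes rose: Isg15, Usp18, Uba7 and Ube2l6. Here a gene is called changed at an adjusted p under 0.05 (edgeR quasi-likelihood test, Benjamini-Hochberg over all tested genes), and of the 13935 genes tested in liver 2.76% were called higher and 3.28% in either direction. Every R135W liver was above every WT liver for all 5 genes, an arrangement seen in 14.1% of tested genes. The median log2 fold change was 1.09 over the 5 genes and -0.01 over all genes tested.

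Isg15, the modifier, was at 34.7, 69.1 and 74.5 CPM in R135W livers, against 11.51, 13.03 and 10.56 CPM in WT livers. The lowest R135W liver, that of animal 5, was still well above the highest WT liver. Isg15 averaged 59.4 ± 21.6 CPM in R135W and 11.7 ± 1.25 CPM in WT (SD, n = 3 each), a 5.06-fold rise (log2 fold change 2.34, SE 0.269, adjusted p = 0.00671), which ranked 27 of 13935 genes by p. The call was kept without each of the 6 livers in turn, with adjusted p up to 0.0426.

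Usp18, the protease that takes ISG15 off, was at 37.3, 51.9 and 73.0 CPM in R135W livers, against 9.13, 14.35 and 16.97 CPM in WT livers. The groups were apart, and R135W animal 5 was again the lowest of its group. The means were 54.0 ± 18 CPM in R135W and 13.5 ± 3.99 CPM in WT (SD, n = 3 each), a 3.99-fold rise (log2 fold change 1.995, SE 0.281, adjusted p = 0.0112). Without WT animal 8 the adjusted p was 0.0581.

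Uba7, the activating enzyme at the head of the cascade, was at 42.9, 56.5 and 53.5 CPM in R135W livers, against 21.7, 25.3 and 27.4 CPM in WT livers. It averaged 51.0 ± 7.15 CPM in R135W and 24.8 ± 2.88 CPM in WT (SD, n = 3 each; log2 fold change 1.03, SE 0.144, adjusted p = 0.0109). This was the tightest R135W group of the 5 genes relative to its mean. Without WT animal 8 the adjusted p was 0.0525.

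Ube2l6, the carrier enzyme and in liver the gene with the most counts of the 5, was at 100.6, 137 and 143 CPM in R135W livers, against 68.8, 76.9 and 64.3 CPM in WT livers. It averaged 127 ± 22.8 CPM in R135W and 70.0 ± 6.37 CPM in WT (SD, n = 3 each; log2 fold change 0.85, SE 0.153, adjusted p = 0.0240). This was the smallest of the 5 changes in liver. The call did not outlast the loss of R135W animal 7 or 12 or of any WT animal, where adjusted p was 0.0584 to 0.110, nor age as a covariate (0.0519).

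Herc6, the ligase, was at 23.5, 37.5 and 55.0 CPM in R135W livers, against 15, 22.8 and 16.45 CPM in WT livers. R135W animal 5 lay just above the highest WT liver, and the R135W group had the widest spread of the 5 genes relative to its mean. The log2 fold change of 1.09 (SE 0.287) did not pass the threshold (adjusted p = 0.0871). Without R135W animal 5 it was 1.35 (adjusted p = 0.0233), and DESeq2 gave an adjusted p of 0.00266 on all 6 livers.

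**Figure D1:**
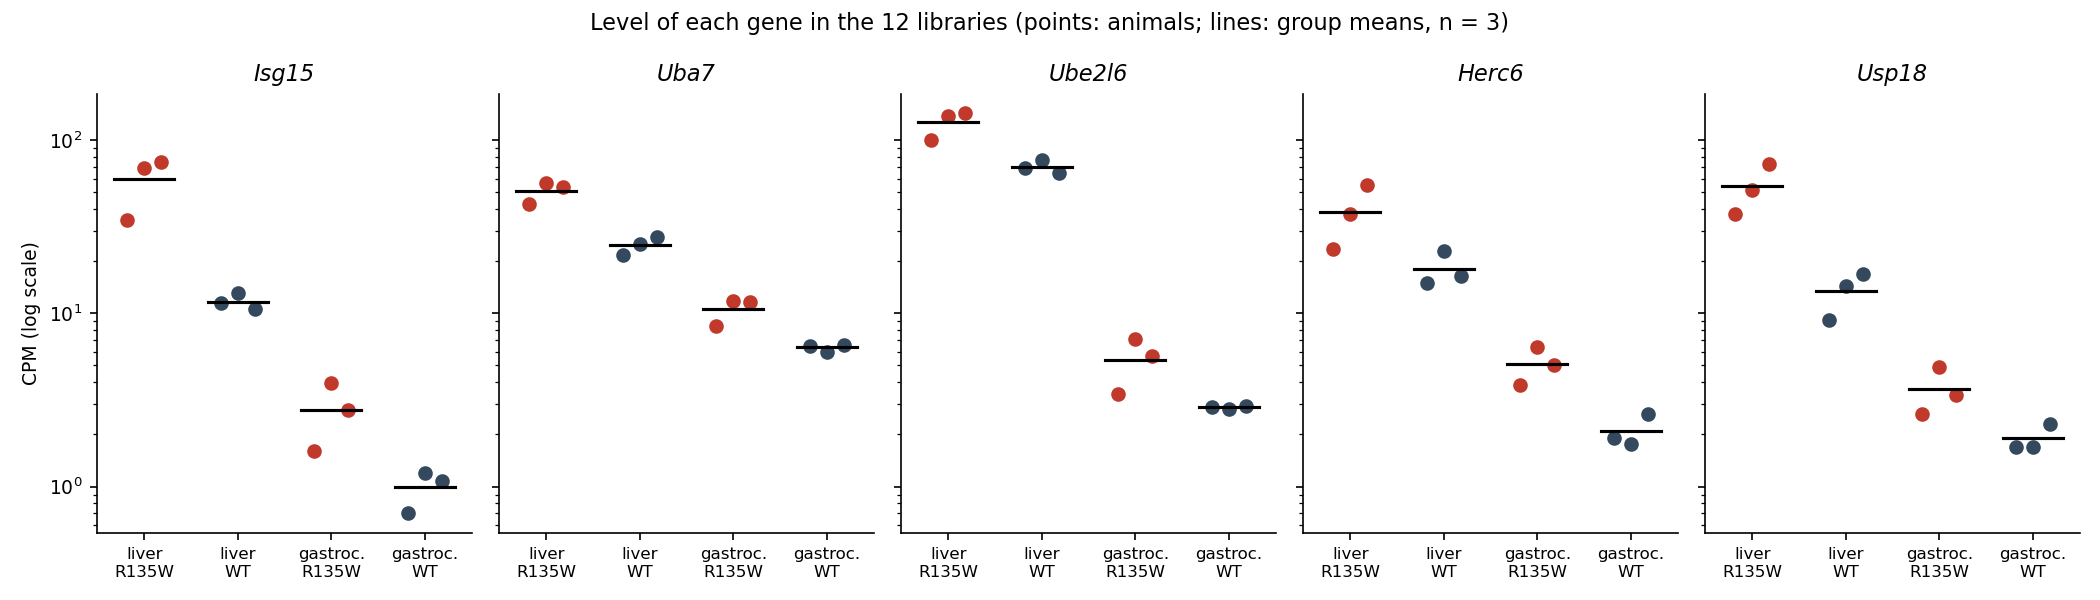
Level of each gene in CPM (log axis) in the 12 libraries, by tissue and genotype, with a line at the mean of 3 animals. For all 5 genes the groups run down from R135W liver to WT liver, R135W gastrocnemius and WT gastrocnemius without overlapping.

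In gastrocnemius, 2 of the 5 genes rose, Herc6 and Uba7, where of the 13826 genes tested 0.542% were called higher and 0.875% in either direction. All 5 had every R135W library above every WT library, as did 9.10% of tested genes, and all 5 were higher at an unadjusted p under 0.05, as were 6.63%. By DESeq2 all 5 passed the adjusted threshold, and by limma-voom 1 did. The median log2 fold change was 0.93 over the 5 genes and -0.00 over all genes tested. Both edgeR calls rest on most libraries being kept. Uba7 and Herc6 kept theirs only when R135W animal 5 was the one left out. Without R135W animal 7 or 12 or any WT animal, the adjusted p was 0.104 to 0.240 for Uba7 and 0.0698 to 0.183 for Herc6; in the fit of all 12 libraries it was 0.102 and 0.269. The library of R135W animal 12 had the highest hepatocyte sum in muscle. Liver RNA at that share would be 0.236% of its measured Uba7 level and 0.411% of its Herc6 level. The part of liver RNA in these 2 calls was not tested.

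Herc6 was at 3.84, 6.39 and 5.05 CPM in R135W gastrocnemius, against 1.91, 1.77 and 2.61 CPM in WT gastrocnemius. The groups were apart, and the 2.42-fold rise (log2 fold change 1.27, SE 0.218, adjusted p = 0.0369) was close in size to the uncalled value in liver. Uba7 was at 8.45, 11.8 and 11.6 CPM in R135W gastrocnemius, against 6.52, 5.95 and 6.60 CPM in WT gastrocnemius (log2 fold change 0.73, SE 0.137, adjusted p = 0.0483). The WT values of Uba7 lay close together, and the R135W values were above them by unequal margins.

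The other 3 genes did not pass the threshold by edgeR in muscle. Isg15 had 38, 105 and 72 counts in R135W gastrocnemius, against 17, 33 and 28 counts in WT gastrocnemius. In CPM this was 1.60, 3.97 and 2.76 in R135W and 0.706, 1.19 and 1.07 in WT (log2 fold change 1.47, SE 0.332, adjusted p = 0.0995). The value of Isg15 was the largest of the 5 in muscle as in liver, with the largest error of the 5 in muscle. Ube2l6 was at 3.42, 7.11 and 5.70 CPM in R135W gastrocnemius, against 2.86, 2.81 and 2.92 CPM in WT gastrocnemius (log2 fold change 0.91, SE 0.232, adjusted p = 0.148). Usp18 was at 2.62, 4.92 and 3.37 CPM in R135W gastrocnemius, against 1.70, 1.70 and 2.30 CPM in WT gastrocnemius (log2 fold change 0.93, SE 0.244, adjusted p = 0.161). In each case R135W animal 5 lay nearest to the WT libraries. Without that animal Isg15 and Ube2l6 passed the threshold (adjusted p = 0.0242 and 0.0168) and Usp18 did not (0.0747). With age as a covariate Usp18 passed (0.0406).

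The genotype difference was then compared between tissues by the interaction of genotype and tissue over all 12 libraries. It was called for 0 of the 5 genes by edgeR, DESeq2 and limma-voom alike, where edgeR called 0.130% of 15414 genes in either direction. At an unadjusted p under 0.05, which 9.95% of genes had in either direction, it was found for 1, Usp18. For Usp18 the log2 fold change in liver exceeded that in gastrocnemius by 1.06 (SE 0.435, edgeR adjusted p = 0.433). For Isg15 the excess in liver was 0.86 (SE 0.501, adjusted p = 0.601), and for Uba7 it was 0.30 (SE 0.206, adjusted p = 0.689). For Herc6 and Ube2l6 the differences were -0.19 (SE 0.424) and -0.07 (SE 0.289), smaller than their errors, and both turned positive without some single libraries. With the animal as a block the errors were smaller: Usp18 gave 1.07 (SE 0.287, unadjusted p = 0.00342) and Isg15 gave 0.87 (SE 0.262, unadjusted p = 0.00682). Neither passed after adjustment (0.228 and 0.283).

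All 5 genes were expressed more in liver than in gastrocnemius in both genotypes. In R135W animals the liver exceeded gastrocnemius by a log2 fold change of 4.54 for Ube2l6, 4.41 for Isg15, 3.89 for Usp18, 2.92 for Herc6 and 2.26 for Uba7 (SE 0.147 to 0.325, adjusted p at most 6.47e-07). In WT animals the values were 4.61 for Ube2l6, 3.54 for Isg15, 3.11 for Herc6, 2.83 for Usp18 and 1.96 for Uba7 (SE 0.151 to 0.366, adjusted p at most 2.10e-06). Tissue differences of this kind were common, with 41.0% of genes called higher in liver in R135W and 40.9% in WT. Even WT liver stood above R135W gastrocnemius without overlap for every gene, by a ratio of mean CPM of 2.34 for Uba7 to 12.9 for Ube2l6. In bulk tissue, more cells that express a gene cannot be told apart from more RNA of it per cell.

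Per kilobase of exon length the genes could be ranked within a group. In R135W liver Ube2l6 led at 91.4 CPM per kilobase, followed by Isg15 at 78.6, Usp18 at 30.5, Uba7 at 16.1 and Herc6 at 7.33. The ranges of Ube2l6 and Isg15 overlapped there. In WT liver the order was Ube2l6 at 50.5 CPM per kilobase, Isg15 at 15.5, Uba7 at 7.84, Usp18 at 7.61 and Herc6 at 3.43, with Uba7 and Usp18 overlapping. Usp18 therefore stood above Uba7 in all 3 R135W livers and in 2 of the 3 WT livers. In gastrocnemius the 5 genes were closer together, from 3.90 (Ube2l6) to 0.965 (Herc6) CPM per kilobase in R135W and from 2.07 (Ube2l6) to 0.397 (Herc6) in WT. Herc6, the ligase, was the lowest of the 5 per kilobase in every group.

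The ratio of the modifier to its enzymes was taken within each library, on the per-kilobase scale. In liver Isg15 was 0.632 to 0.960 of the Ube2l6 level in R135W and 0.301 to 0.311 in WT. The WT ratios were nearly equal among animals, and the R135W ratios lay well above them (log2 difference 1.43, SE 0.193). The ratio to Uba7 was 3.38 to 5.83 in R135W livers and 1.61 to 2.22 in WT livers, and the ratio to Herc6 was 9.46 to 12.9 in R135W livers and 3.99 to 5.36 in WT livers (log2 difference 1.24 for each). The ratio to Usp18 overlapped, at 2.18 to 3.12 in R135W livers and 1.46 to 2.95 in WT livers. In gastrocnemius only the ratio to Ube2l6 was apart, at 0.861 to 1.02 in R135W and 0.452 to 0.776 in WT (log2 difference 0.57, SE 0.247). An exact two-sided permutation test of 3 against 3 cannot go below p = 0.1; the 4 ratios without overlap gave that value, and 0.2 after adjustment over the 8 ratios tested.

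**Figure D2:**
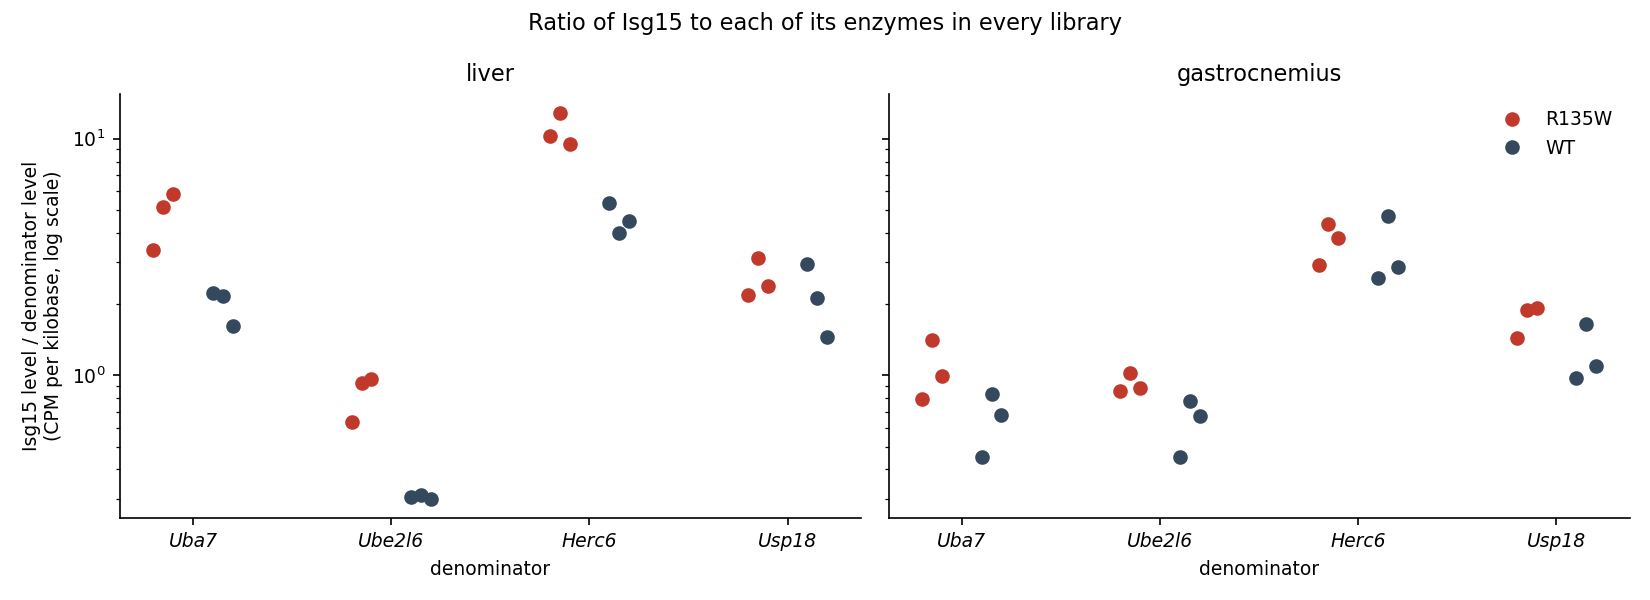
Isg15 level divided by the level of each of its 4 enzymes, both in CPM per kilobase (log axis), in each of 12 libraries. In liver the R135W ratios to Uba7, Ube2l6 and Herc6 lie above the WT ratios and those to Usp18 overlap; in gastrocnemius only the ratios to Ube2l6 are apart.

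The 5 genes ranked the R135W animals much alike and the WT livers less so. R135W animal 5 had the lowest value of its group for all 5 genes in liver and again for all 5 in gastrocnemius. In gastrocnemius animal 7 was highest for all 5. In liver animal 12 was highest for 4, and animal 7 for Uba7. Among WT livers animal 9 was lowest for 2 genes and highest for 2, and animal 6 was lowest for 3. In WT gastrocnemius animal 9 was highest for 4 and animal 8 lowest for 4. Averaged over the 5 genes, log2 CPM relative to the mean of the tissue's 6 libraries was 0.24, 0.84 and 1.07 in R135W livers of animals 5, 7 and 12, and -0.91, -0.55 and -0.69 in WT livers of animals 6, 8 and 9. In gastrocnemius it was 0.03, 0.91 and 0.57 in R135W and -0.63, -0.54 and -0.34 in WT. Animal 5 was 9.0 weeks old, as were 2 of the WT animals.

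**Figure D3:**
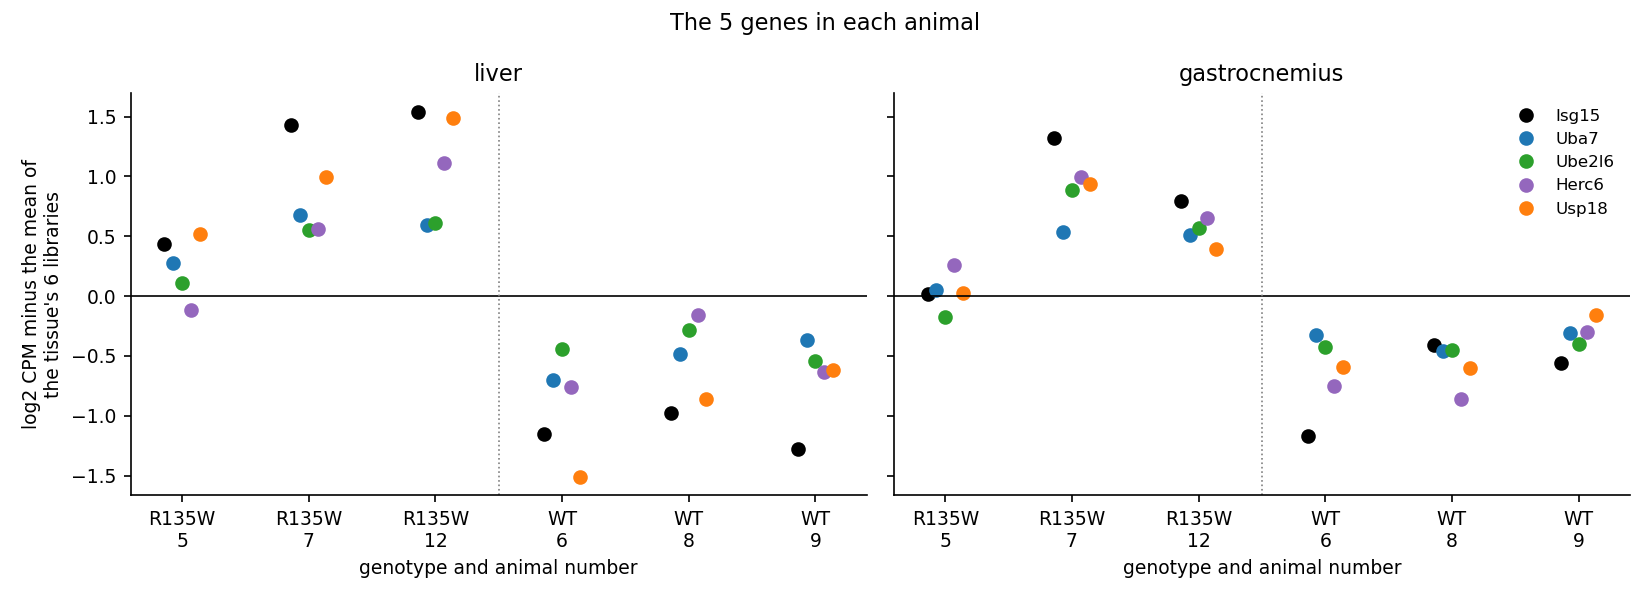
Log2 CPM of the 5 genes in each animal, minus the mean of the 6 libraries of the tissue. Among R135W animals number 5 is lowest for all 5 genes in both tissues, and the WT animals all lie below 0.

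Each gene was next set beside its family. In either direction 3.28% of all genes were called in liver and 0.875% in gastrocnemius, which leaves few or no calls to be found in lists of these sizes, and the difference between the 5 genes and their families was not tested. Of 14 other ubiquitin and ubiquitin-like genes tested in liver, edgeR called 0, DESeq2 called 0 and limma-voom called 0, with 3 at an unadjusted p under 0.05, which 17.6% of all genes tested in liver and 11.5% in gastrocnemius had. Of 13 in gastrocnemius edgeR and limma-voom called 0 and DESeq2 called 1, with 2 at an unadjusted p under 0.05. The ubiquitin gene Ubb had a log2 fold change of -0.08 (SE 0.170) in liver and 0.11 (SE 0.0595) in gastrocnemius. Ubd, which encodes another interferon-inducible modifier, FAT10, was at 0.446 to 0.545 CPM in R135W livers and 0 to 0.158 CPM in WT livers. Its log2 fold change of 2.22 (SE 0.609) rests on few counts and missed the threshold (adjusted p = 0.0995), which it passed in the fit of all 12 libraries (0.0467).

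Of 9 activating enzymes and partner subunits of other modifiers, 0 were called in liver and 0 in gastrocnemius by edgeR, DESeq2 or limma-voom, with 1 and 0 at an unadjusted p under 0.05. Uba1, which activates ubiquitin, had log2 fold changes of 0.07 (SE 0.115) and 0.03 (SE 0.0724) in the 2 tissues. Of the other E2 enzymes edgeR and limma-voom called 0 of 33 in liver and 0 of 32 in gastrocnemius. DESeq2 called 1 and 0, and 3 in each tissue had an unadjusted p under 0.05. The one was Ube2c, a carrier of ubiquitin in cell division, at 1.04 to 3.54 CPM in R135W livers and 0.158 to 1.12 CPM in WT livers, where the groups overlapped (edgeR log2 fold change 2.001, SE 0.652, adjusted p = 0.160; DESeq2 adjusted p = 0.0222). Ube2l3, the closest relative of Ube2l6 and a carrier of ubiquitin, had log2 fold changes of -0.07 (SE 0.118) and -0.00 (SE 0.0596). Of 4 other HERC ligases none was called by the 3 tools in either tissue, with 0 in liver and 2 in gastrocnemius at an unadjusted p under 0.05. Of 42 other ubiquitin-specific proteases, edgeR, DESeq2 and limma-voom called 0 in liver, with 6 at an unadjusted p under 0.05 and a median log2 fold change of -0.06. Of 44 in gastrocnemius 1 was called, Usp54, where 0.333% of genes were called lower. It was lower at 7.94 to 9.91 CPM in R135W and 13.8 to 17.1 CPM in WT (log2 fold change -0.81, SE 0.114, adjusted p = 0.0266). Without R135W animal 7 or WT animal 8 or 9 its adjusted p was 0.0709 to 0.104, and in the fit of all 12 libraries 0.0998.

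**Figure D4:**
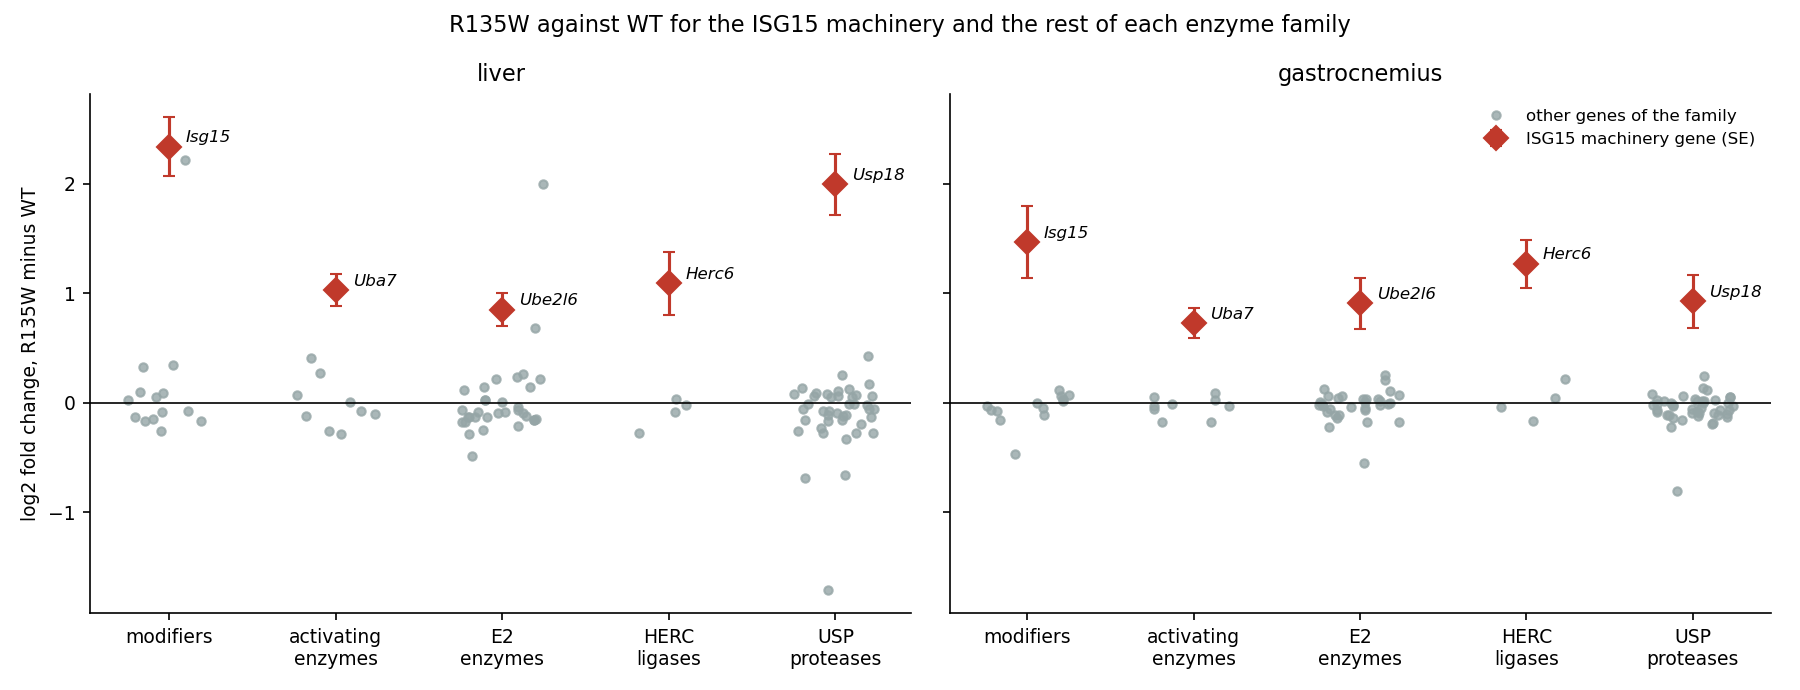
Log2 fold change, R135W minus WT, of the 5 genes (diamonds with SE) and of the tested genes of each family (grey points) in liver and gastrocnemius. The 5 genes lie between 0.73 and 2.34; among the grey points that stand apart in liver are Ubd at 2.22, Ube2c at 2.001 and Usp2 at -1.70, which edgeR did not call in the fit of the 6 livers but did in the fit of all 12 libraries (adjusted p 0.0467, 0.0466 and 0.0425).

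The share of each gene in the per-kilobase RNA level of its family was then compared. Usp18 made up 9.40 ± 2.38% of the summed level of 51 ubiquitin-specific proteases in R135W liver and 2.48 ± 0.632% in WT liver (SD, n = 3 each). By mean level it ranked 1 of 51 in R135W liver and 16 of 51 in WT liver, where Usp10 was highest. In gastrocnemius its share was 0.321 ± 0.104% in R135W and 0.165 ± 0.0263% in WT, at ranks 37 and 41. Ube2l6 made up 15.8 ± 2.39% of 37 E2 enzymes in R135W liver and 9.14 ± 0.584% in WT liver. It was the highest E2 gene in R135W liver, and Ube2d3 was in WT liver. Set against Ube2l3 alone, Ube2l6 took 77.8 ± 3.39% of the pair in R135W liver and 65.3 ± 0.569% in WT liver. In gastrocnemius it took 8.43 ± 2.89% in R135W and 4.68 ± 0.170% in WT, so Ube2l3 was the main gene of the pair in muscle. Uba7 took 29.4 ± 2.39% of Uba1, Uba6 and Uba7 in R135W liver and 17.6 ± 1.77% in WT liver. Herc6 took 28.6 ± 6.82% of the 5 HERC genes in R135W liver and 15.7 ± 3.29% in WT liver. For all 5 shares, in both tissues, the R135W libraries lay above the WT libraries without overlap. Of single tested genes, 14.1% in liver and 9.10% in gastrocnemius had that arrangement. Ube2l6 enters with both of its families and Isg15 with none. The shares rest on the same gene levels as above and are no separate evidence. Shares on this scale depend on the exon lengths of the annotation.

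**Figure D5:**
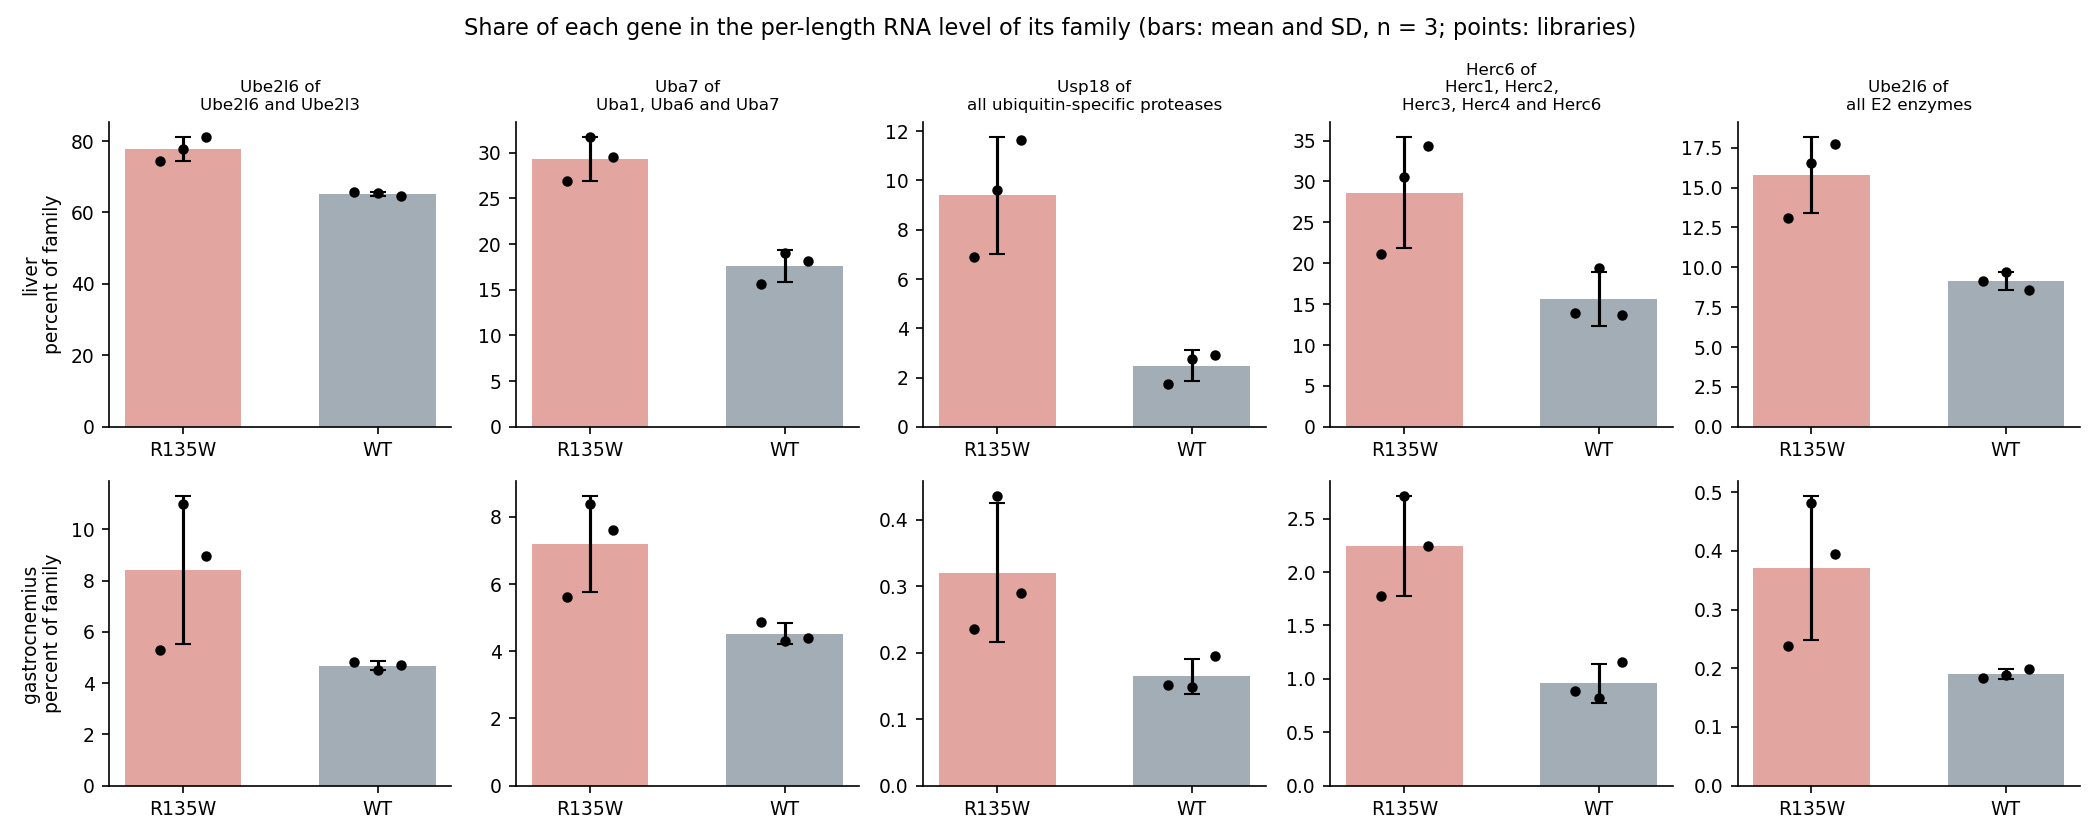
Share of each gene in the summed CPM per kilobase of its family, in percent, in liver (top) and gastrocnemius (bottom); bars are means with SD (n = 3) and points are libraries. Usp18 reaches 9.40% of all ubiquitin-specific proteases in R135W liver, against 2.48% in WT liver.

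Genes on either side of the conjugation step were counted from lists that were chosen with earlier results of these data known. Upstream, 0 of the 19 interferon ligand genes in the files passed the filter. In all 12 libraries 14 of them had no counts, and their summed counts were 0 to 9 in R135W libraries and 0 to 11 in WT libraries, so ligand RNA was not measurable at this depth. Of 6 receptor and JAK-STAT genes, 1 rose in liver, where 2.76% of all genes did, and 1 in gastrocnemius, where 0.542% did. Irf9 rose in liver, at 51.8 to 62.0 CPM in R135W and 36.7 to 40.9 CPM in WT (log2 fold change 0.55, SE 0.112, adjusted p = 0.0351). In gastrocnemius its log2 fold change was of like size at 0.56 (SE 0.122), with an adjusted p of 0.0786 by edgeR and 0.0204 by DESeq2, and the liver value less the gastrocnemius value was -0.02 (SE 0.156). Stat2 rose in gastrocnemius, at 12.0 to 15.5 CPM in R135W and 7.56 to 9.52 CPM in WT (log2 fold change 0.70, SE 0.128, adjusted p = 0.0430). The groups of both were apart, and both calls were fragile. Without 1 library, Irf9 in liver was called in 0 of 6 fits (adjusted p 0.0606 to 0.140). Stat2 was called only without R135W animal 5 (adjusted p otherwise 0.0938 to 0.150). With age as a covariate Irf9 had 0.0806 in liver, and in the fit of all 12 libraries Stat2 had 0.103. Of the other restraints of JAK-STAT signalling, such as the SOCS genes, edgeR, DESeq2 and limma-voom called 0 of 12 in liver and 0 of 11 in gastrocnemius, with 3 and 2 at an unadjusted p under 0.05. Of 2 other reported ISG15 ligases, Trim25 and Arih1, edgeR, DESeq2 and limma-voom called 0 in either tissue, with 1 in liver and 0 in gastrocnemius at an unadjusted p under 0.05. Trim25 was at 116 to 139 CPM in R135W livers and 89.4 to 96.8 CPM in WT livers (log2 fold change 0.41, SE 0.115, adjusted p = 0.108), and passed in the fit of all 12 libraries (0.0354). Arih1 had log2 fold changes of -0.14 (SE 0.128) in liver and -0.04 (SE 0.0587) in gastrocnemius.

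Downstream, 23 genes whose proteins are reported to carry ISG15 were tested in liver and 22 in gastrocnemius. In liver 5 rose, Mx1, Ifit3, Ifit1, Ddx58 and Adar, against 2.76% of all genes, and the list's median log2 fold change was 0.07. The 5 are themselves known interferon targets. Mx1 was at 9.15 to 21.8 CPM in R135W livers and 1.78 to 2.94 CPM in WT livers (log2 fold change 2.504, SE 0.346, adjusted p = 0.0108). Ifit3 and Ifit1, which bind foreign RNA, had log2 fold changes of 2.32 (SE 0.292, adjusted p = 0.00831) and 2.07 (SE 0.330, adjusted p = 0.0171). Adar, which edits double-stranded RNA, had one of 0.83 (SE 0.109, adjusted p = 0.00913). Ddx58, the RNA sensor RIG-I, had one of 0.85 (SE 0.161, adjusted p = 0.0287). Without WT animal 9, Ifit3 and Adar had adjusted p of 0.0507, Mx1 0.0552 and Ifit1 0.0821. Without WT animal 8 Mx1 had 0.0521, and without R135W animal 7 Ifit1 had 0.0542. Ddx58 kept its call only without R135W animal 5 (adjusted p otherwise 0.0606 to 0.117), and had 0.0580 with age as a covariate. In gastrocnemius 2 of 22 rose, where 0.542% of all genes did. They were Ifit3 (log2 fold change 1.71, SE 0.218, adjusted p = 0.0184) and Parp12 (0.65, SE 0.115, adjusted p = 0.0411), the second named after its value was seen. DESeq2 called 4 of the 22 and limma-voom 2, and 7 had an unadjusted p under 0.05, as did 11.5% of all genes. Without R135W animal 7 or WT animal 8 Ifit3 had adjusted p of 0.0548 and 0.0709, and Parp12 kept its call only without R135W animal 5 (otherwise 0.0812 to 0.162). In the fit of all 12 libraries they had 0.0714 and 0.433. Parp12 in liver had a log2 fold change of 0.94 (SE 0.215, edgeR adjusted p = 0.0549). It passed there by DESeq2 (0.00132), with no filter (0.0296) and in the fit of all 12 libraries (0.00796). Of the liver fits without 1 library, it passed only without R135W animal 5 (0.0452). Both subunit genes of LFA-1, the receptor of secreted ISG15, rose in liver. Itgal was at 25.03 to 27.02 CPM in R135W livers and 10.9 to 16.4 CPM in WT livers (log2 fold change 0.98, SE 0.160, adjusted p = 0.0182). Itgb2 was at 15.4 to 17.5 CPM in R135W livers and 5.24 to 9.65 CPM in WT livers (log2 fold change 1.21, SE 0.213, adjusted p = 0.0226). Without R135W animal 7 or WT animal 8 the adjusted p of Itgal was 0.0613 and 0.0619, and Itgb2 kept its call only without WT animal 9 (otherwise 0.0536 to 0.0642). In gastrocnemius edgeR, DESeq2 and limma-voom called 0 of the pair, with 1 at an unadjusted p under 0.05.

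Itgal and Itgb2 are genes of leukocytes, and other leukocyte markers moved in liver as well. Of 15 macrophage markers tested in liver 11 rose, where 2.76% of all genes did. Those not called were Lyz2 (log2 fold change 0.89), Mrc1 (0.25), Mertk (-0.14) and Cd163 (-0.46). DESeq2 called 12 of the 15 and limma-voom 10. The summed level of the 15 was 1100 to 1148 CPM in R135W and 434 to 676 CPM in WT. Of 6 monocyte markers 5 rose, and Ccr2 was not called (log2 fold change 0.74), with 4 of the 6 called by DESeq2 and 5 by limma-voom. Their sums were 28.5 to 34.0 CPM in R135W and 13.2 to 14.4 CPM in WT. None of these markers was at 0 in the livers. Over all genes the 457 edgeR calls in liver became 84 to 285 without 1 library. How many of these markers kept their call there is not given here. R135W animal 5, lowest for the 5 genes, had a macrophage sum of 1129 CPM, between those of the other two R135W livers. Hepatocyte markers summed to 75560 to 81540 CPM in R135W and 91590 to 94500 CPM in WT livers. In gastrocnemius the macrophage sums overlapped, at 75.1 to 95.9 CPM in R135W and 71.4 to 89.3 CPM in WT, and edgeR, DESeq2 and limma-voom called 0 of 10, with 0 at an unadjusted p under 0.05. Vsig4 was at 0 in R135W gastrocnemius. The monocyte sums overlapped too, at 7.12 to 10.9 CPM in R135W and 6.75 to 10.3 CPM in WT. Endothelial markers summed to 246 to 270 CPM in R135W gastrocnemius and 193 to 211 CPM in WT gastrocnemius. Of these 6 markers 1 was called higher by edgeR, where 0.542% of all genes were. DESeq2 called 2 and limma-voom 1. At an unadjusted p under 0.05 there were 5, all higher in R135W, where 11.5% of all genes had such a p in either direction. Stab2 had a negative log2 fold change (-0.36). The part of these cells in the values of the 5 genes was not tested.

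Over the 12 libraries, each centred on its tissue, the 5 non-members most like the mean of the 5 genes were Ifit3 (Pearson r 0.987), Zbp1 (0.985), Ifi44 (0.983), Ddx58 (0.983) and Parp14 (0.982), among 12413 genes tested in both tissues. The 5 genes themselves correlated with their own mean at 0.949 (Herc6) to 0.985 (Isg15). The libraries share animals and the genotype difference, so these values are a description. Ranked by Spearman correlation, 1 of these 5 genes remained among the first 5. Ifi44 was at 25.1, 54.2 and 70.2 CPM in R135W livers and 5.59, 7.35 and 4.87 CPM in WT livers, with log2 fold changes of 3.07 in liver (SE 0.356, adjusted p = 0.00671) and 2.09 in gastrocnemius (SE 0.271, adjusted p = 0.0184). Zbp1, a sensor of left-handed nucleic acid, and Parp14, an ADP-ribosyltransferase, had 1.99 (SE 0.203, adjusted p = 0.00474) and 1.01 (SE 0.170, adjusted p = 0.0197) in liver. In gastrocnemius they had 1.62 (adjusted p = 0.160) and 0.77 (adjusted p = 0.0786). Ifi44 in gastrocnemius had adjusted p of 0.0501 to 0.0759 without R135W animal 7 or any WT animal and 0.102 in the fit of all 12, and Parp14 in liver 0.0572 to 0.0683 without R135W animal 7 or WT animal 8 or 9.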

How the data were processed

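Poly(A) RNA of liver and gastrocnemius from 6 mice was sequenced as 100-nucleotide read pairs, per the labels' protocols. Per the submitters' processing notes the aligner was STAR 2.4.0. The authors deposited raw counts per gene symbol. Per the file headers these counts came from featureCounts 1.5.2 over exons of the UCSC mm10 annotation, as read pairs, with primary alignments, no strand option, and a fragment counted for every gene it overlaps. Replicates are separate animals and were not pooled. Each tissue's 6 libraries were fitted with edgeR 4.0.16 (R 4.3.3): TMM, filterByExpr by group, quasi-likelihood test, Benjamini-Hochberg adjustment. The interaction and the tissue contrasts used all 12 libraries. SE is the log2 fold change over the square root of F. Alternatives were RLE, DESeq2 1.42.0, limma-voom (limma 3.58.1), no filter, a filter of 1 CPM in 3 libraries, all 12 libraries, age as a covariate, the animal as a block and leaving out each library. Every pair of replicates differed by more than sampling noise (chi-squared over its degrees of freedom 8.07 to 118). Pairing by animal comes from the labels. Deviations of an animal's 2 libraries correlated at 0.00337 to 0.0690. Those of different animals of the same genotype correlated at -0.0549 to 0.0372, which overlaps, so these values do not settle the pairing.

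The members and gene lists were chosen with earlier results of these data known. A gene of the lists is not reported here. Named are the 5 genes, Mars2 and up to 4 called genes per list by p (otherwise up to 2, printed in part). Also named are 4 paralogs, the 5 genes of most like pattern and the tested genes nearest to the 5 genes on each side. Parp12, Usp2 and the single cell type markers in the text were named after their values were seen. The other marker lists, by edgeR in liver, had these called: T cell 0 of 5, B and plasma cell 0 of 5, NK cell 1 of 4, dendritic cell 0 of 6, neutrophil 0 of 3, endothelial 0 of 6 and hepatocyte 0 of 8. At an unadjusted p under 0.05 they had 2, 4, 2, 2, 2, 1 and 1, DESeq2 called 0, 1, 1, 0, 1, 0 and 1, and limma-voom called 0 in each. Of all genes tested in liver, edgeR called 3.28% in either direction, and 17.6% had an unadjusted p under 0.05. In gastrocnemius the tools called 0 of 8 muscle-fibre markers, of which 1 had p under 0.05 before adjustment, as did 11.5% of all genes there.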

Additional observations from a re-analysis of the deposited data

How the results depend on the processing

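Of the 5 genes, 4 were called in liver, 1 without WT animal 8 and 5 without R135W animal 5 (leaving out 1 library: 1 to 5); 5 were called by DESeq2, with no filter and in the fit of all 12 libraries, and 3 with age as a covariate. In gastrocnemius 2 were called, 0 to 4 without 1 library, 5 by DESeq2, 3 with no filter, 3 with age as a covariate, 1 by limma-voom, 1 under the stricter filter and 0 in the fit of all 12 libraries. Over all genes, the 457 calls in liver became 781 by DESeq2, 1057 in the fit of all 12, 274 with age as a covariate and 84 to 285 without 1 library. The 121 in gastrocnemius became 274 by DESeq2, 20 in the fit of all 12 and 3 to 106 without 1 library. The 20 interactions became 184 by DESeq2, 7 by limma-voom and 6 to 34 without 1 library, with 0 of the 5 genes called throughout. With the animal as a replicate block there were 16 interactions, and no call of the 5 genes changed in the interaction or the tissue contrasts. All 5 stayed higher in liver than in gastrocnemius under every alternative run. Values near 0 changed sign. Without 1 library the interaction ran from -0.31 to 0.18 for Ube2l6 and from -0.53 to 0.072 for Herc6, and the log2 difference in the gastrocnemius ratio of Isg15 to Herc6 from -0.015 to 0.42. In liver the log2 fold change ran from -0.12 to 0.28 for Mars2, -0.19 to 0.17 for Herc3, -0.12 to 0.18 for Usp54 and -0.22 to 0.031 for Ubb. In gastrocnemius it ran from -0.31 to 0.11 for Ube2c, -0.020 to 0.085 for Uba1 and -0.031 to 0.022 for Ube2l3, which was also above 0 with no filter (0.0012), the stricter filter (0.0023), all 12 libraries (0.011) and age (0.00037). By Spearman correlation 1 of the 5 genes of like pattern was kept. The cause was not tested. In muscle Isg15 had 17 to 105 counts per library and Uba7 157 to 312. Replicates there differed beyond counting noise (chi-squared over its degrees of freedom 8.07 to 17.8). The parts of depth and of the spread among 3 animals were not tested.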

Other observations

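For each of the 5, the nearest gene on each side that was tested in at least 1 tissue was looked at. Untested genes of the annotation were passed over. Next to Isg15 at 2.465 kb, AW011738 rose in liver, at 5.47 to 10.2 CPM in R135W and 2.47 to 3.60 CPM in WT (log2 fold change 1.33, SE 0.255, edgeR adjusted p = 0.0295). In gastrocnemius its log2 fold change was 0.09 (SE 0.118). On the other side, at 1.935 kb, Agrn, which encodes the basement membrane protein agrin, had log2 fold changes of 0.41 in liver and 0.52 in gastrocnemius (adjusted p = 0.111 and 0.0721), with the R135W libraries above the WT libraries in both tissues. It was called in gastrocnemius by DESeq2 (0.00141), with no filter (0.0301) and without R135W animal 5 (0.0110), and in liver in the fit of all 12 libraries (0.0470). Next to Usp18 at 19.81 kb, Tuba8, an alpha-tubulin gene, rose in liver, at 3.02 to 10.7 CPM in R135W and 1.07 to 1.82 CPM in WT (log2 fold change 2.20, SE 0.460, adjusted p = 0.0390). In gastrocnemius, where it was at 253 to 323 CPM in R135W and 230 to 277 CPM in WT, its log2 fold change was 0.21 (SE 0.102, adjusted p = 0.469). The liver calls were fragile: AW011738 was kept only without R135W animal 5 (adjusted p otherwise 0.0717 to 0.102) and Tuba8 only without R135W animal 7 (0.0538 to 0.160), and by limma-voom their adjusted p was 0.0502 and 0.0854. Of the other neighbours, edgeR, DESeq2 and limma-voom called 0 of 5 tested in liver and 0 of 7 in gastrocnemius, with 1 and 0 at an unadjusted p under 0.05.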
